A study of Mus musculus with 26 samples.

Results

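The comparison set the livers of all 8 mice given benoxacor at 5 mg/kg against those of all 5 mice given 0.5 mg/kg, 13 of the 26 mice in the study, chosen by the dose in the labels and with no control mice in the fit. Benoxacor is a safener, used together with herbicides so that they spare the crop. All 13 were C57BL/6 mice that were acclimatised from 4 to 8 weeks with their bedding mixed to even out the gut microbiome. Both groups received benoxacor by oral gavage on 3 consecutive days, and livers were collected 24 hours later. The 2 groups differed only in the dose, as far as the labels say, and neither the sex nor the gavage vehicle is given in the sources used here. Each library is 1 mouse, so p-values measure the spread between mice.

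The mouse numbers form 2 runs, one up to 616 and one from 619, with no label that explains the gap between them. Of the lower dose the first run held 3 mice and the second 2, and of the higher dose each held 4. Within each run the numbers of the 5 mg/kg mice follow those of the 0.5 mg/kg mice, so dose and number order cannot be told apart. Total counts ran from 5433074 to 9088626 reads, with a median of 8106695. Among the libraries, 4 stood apart. Replicates 1 and 2 at 0.5 mg/kg, both of the first run, had high acute phase transcripts, and replicate 1 also had the lowest total count. Replicate 6 at 5 mg/kg had 0.649% of its counts on major urinary protein genes, against 2.99% to 10.6% in the other 12 libraries, and replicate 8 at 5 mg/kg carried transcripts of other tissues. They are called the 4 libraries here.

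The liver takes up what the gut absorbs and clears foreign chemicals with enzymes whose genes answer to nuclear receptors such as CAR and PXR. It also makes the plasma proteins of inflammation, the lipids carried by lipoproteins and the chaperones that fold secreted proteins. Many of its genes follow the time of day through the circadian clock and the time of the last meal.

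The test was edgeR's quasi-likelihood test with a term for the run and Benjamini-Hochberg adjustment. Of 14030 expressed genes, 0 reached an adjusted p below 0.05 (0.0% of the genes tested, smallest adjusted p = 0.555). An unadjusted p under 0.05 was found for 820 genes (5.84%), 406 with a higher level at 5 mg/kg (2.89%) and 414 with a lower one (2.95%). The median log2 fold change, 5 minus 0.5 mg/kg, was 0.03 over all genes, and 7823 of 14030 were positive. The median standard error of a log2 fold change was 0.18. DESeq2 called 22 of the 9386 genes it gave an adjusted p for (0.234%). Among the 22 were Saa1, Saa2, Saa3, Dnajb9, Syvn1, Junb, Gda, Plk3, Igfbp3 and Fasn, all described here with edgeR's values. DESeq2 also called Cers6 (log2 fold change -1.32), which makes ceramides, the neutrophil attractant Cxcl1 (-2.78), and Angptl8 (1.16), a regulator of lipoprotein lipase that rises with feeding. No gene is described as having changed with dose, because none passed in edgeR.

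In 15 genes every 5 mg/kg mouse lay above every 0.5 mg/kg mouse (0.107% of the genes tested), and in 13 every one lay below (0.0927%). Leaving out the 4 libraries that stood apart left 734 genes at an unadjusted p under 0.05 (5.2%) in place of 820, and 243 genes were on both lists, 29.63% of the first and 33.11% of the second. Of the 820 genes, 814 had the same sign without those mice. The mice left had also given the list, so a match in sign was largely set in advance.

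The gene with the smallest p was Dnajb9 (ENSMUSG00000014905, chromosome 12 from 44205559 to 44210326 in mm10), a co-chaperone of the endoplasmic reticulum that is made when unfolded proteins build up there. It stood at 116, 97.7, 54.5, 75.8 and 75.5 CPM (reads scaled to library size) in 0.5 mg/kg replicates 1 to 5, and at 33.3 to 54.1 CPM with a median of 49.1 in the 8 mice at 5 mg/kg. All 8 lay below the lowest 0.5 mg/kg mouse, by a margin of under 1 CPM at the nearest point. The log2 fold change was -0.80 ± 0.15 (SE, 95% confidence interval -1.12 to -0.49, unadjusted p = 6.21e-05, adjusted p = 0.555 in edgeR), with -0.81 in the run up to 616 and -0.80 in the run from 619. The control mice spanned 38.6 to 122 CPM, a range that holds 12 of the 13 values. Without 0.5 mg/kg replicate 3 the gene passed (-0.94, edgeR adjusted p = 0.0215), and without all 4 libraries that stood apart it was at -0.47.

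Syvn1, the ubiquitin ligase that marks misfolded proteins of the endoplasmic reticulum for destruction, stood at 211, 183, 106, 158 and 142 CPM at 0.5 mg/kg and at 77.3 to 133 CPM with a median of 97.8 at 5 mg/kg. The groups overlapped only through 0.5 mg/kg replicate 3, and 4 of the 8 mice at 5 mg/kg lay below it. The log2 fold change was -0.68 ± 0.17 (SE, edgeR adjusted p = 0.722) and -0.34 without the 4 libraries. Reads of Syvn1 cannot be told apart from those of the antisense overlapping Mrpl49 where the counting did not use strand, which is not given in the sources used here. The 100 bases before the Syvn1 start (GRCm38.p6, plus strand, chr19:6046476-6046575, from RefSeq) are shown because they hold a complete endoplasmic reticulum stress element, the site known to be bound by ATF6 and XBP1, in capitals.
Syvn1: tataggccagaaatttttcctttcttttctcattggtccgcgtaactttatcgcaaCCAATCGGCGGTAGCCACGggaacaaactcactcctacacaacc
The element, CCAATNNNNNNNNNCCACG on either strand, was found in the 250 bases before the start in 0.113% of 32851 RefSeq promoters. The Dnajb9 window held an E-box, CACGTG, 107 bases before the start, as did 6.02% of the promoters. Such a match describes the letters and not a bound site.

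The other genes of the smallest p with a lower level at 5 mg/kg were of several kinds. Gda, the guanine deaminase of purine breakdown, stood at 84.4, 82.9, 50.8, 36.7 and 33.4 CPM at 0.5 mg/kg and at 21.1 to 46.1 CPM with a median of 27.7 at 5 mg/kg (log2 fold change -0.79). The levels at 0.5 mg/kg were higher in the first run than in the second, and the within-run values were -0.98 and -0.53. Its value was -0.50 without 0.5 mg/kg replicates 1 and 2, its highest mice, and -0.42 without the 4 libraries. Junb, an immediate early transcription factor of the AP-1 family, stood at 51.4, 39.9, 29.4, 75.6 and 34.7 CPM against 16.4 to 45.6 with a median of 23.0 (log2 fold change -0.92). Within the first run its groups did not overlap, as in 845 of all 14030 genes in that direction. It passed without 0.5 mg/kg replicate 5 (-1.12, edgeR adjusted p = 0.0438). Without the 4 libraries it was at -0.55. Junb overlaps the antisense gene Prdx2.

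Plk3, a stress-induced kinase, had the lowest fold change of this group, -1.28 ± 0.31 (SE). Its level was 106, 95.4, 93.6, 79.1 and 63.6 CPM at 0.5 mg/kg and 15.8 to 89.5 CPM with a median of 27.3 at 5 mg/kg, where 7 of 8 mice lay below every 0.5 mg/kg mouse and replicate 3 lay among them. The control range, 14.7 to 150 CPM, held both groups. Without the 4 libraries it was at -1.24, and Plk3 overlaps the annotated gene Tctex1d4. Dbf4, the activating subunit of the Cdc7 kinase of DNA replication, stood at 4.36 to 5.64 CPM against 1.87 to 3.53, with no overlap (-0.84). Zfp36l2, an RNA-binding protein that shortens messenger RNA life, had -0.58 with 7 of 8 mice below every 0.5 mg/kg mouse, and -0.63 without the 4 libraries. Agmo, the enzyme that cleaves ether lipids, had -0.49, and the nucleotide sugar transporter family member Slc35e3 had -0.51. Ptp4a1 had -1.01 with no overlap and -0.65 without the 4 libraries, but 2 annotated genes of that name share its locus and strand, so its reads may be split between them.

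Among genes with a higher level at 5 mg/kg, Igfbp3 (ENSMUSG00000020427, chromosome 11 from 7206086 to 7213923), a binding protein of the insulin-like growth factors, had the smallest p. It stood at 12.8, 10.4, 10.1, 10.7 and 11.1 CPM at 0.5 mg/kg and at 13.5 to 24.1 CPM with a median of 18.8 at 5 mg/kg. All 8 mice lay above all 5, as in 15 of all 14030 genes (0.107%). The log2 fold change was 0.73 ± 0.15 (SE, 95% confidence interval 0.41 to 1.05, edgeR adjusted p = 0.555), and it was 0.71 without the 4 libraries. The control mice spanned 7.75 to 21.4 CPM.

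Fasn (ENSMUSG00000025153, chromosome 11 from 120805846 to 120824547), the fatty acid synthase, stood at 344, 296, 379, 226 and 310 CPM at 0.5 mg/kg and at 293 to 1090 CPM with a median of 666.5 at 5 mg/kg. In 6 of the 8 mice at 5 mg/kg the level lay above every 0.5 mg/kg mouse, and replicates 5 and 7, both of the second run, lay among them. The log2 fold change was 1.14 ± 0.24 (SE, 95% confidence interval 0.63 to 1.64, edgeR adjusted p = 0.555), with 1.34 in the first run, 0.89 in the second and 0.67 without the 4 libraries. The control mice, at 422 to 677 CPM, lay above all 5 mice at 0.5 mg/kg.

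Cabin1, a repressor of calcineurin signalling, stood at 16.9 to 21.8 CPM against 22.1 to 39.4 with no overlap (0.58), and Fzd1, a Wnt receptor, at 4.86 to 8.14 against 9.08 to 11.5 with no overlap (0.66, 0.40 without the 4 libraries). Smarcd1, a subunit of the SWI/SNF chromatin remodeller, had 0.84 with no overlap, and its highest value of 19.8 CPM was in 5 mg/kg replicate 8. Zfp629 (0.44) and Vipas39 (0.45) likewise did not overlap. Vipas39 takes part in vesicle trafficking. The long noncoding A930038B10Rik had 0.99. Ecm1, a secreted matrix protein of hepatic stellate cells, had 0.48, with 6 of 8 mice above every 0.5 mg/kg mouse. Of the 20 genes named for the smallest p, 5 overlap another annotated gene at 1 CPM or more.

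**Figure D1:**
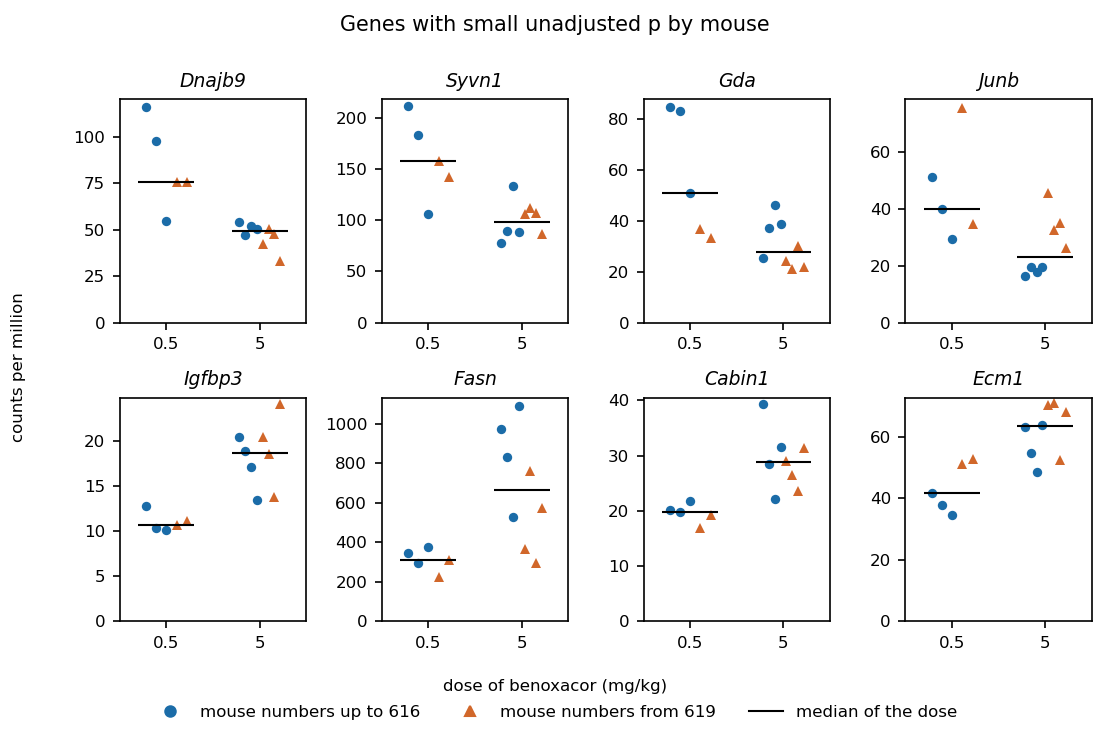
CPM by dose (mg/kg) for 8 of the genes with small unadjusted p, with 1 point per mouse, circles for mouse numbers up to 616, triangles for those from 619 and a line at the median. The 8 mice at 5 mg/kg lay at 33.3 to 54.1 for Dnajb9, below all 5 at 0.5 mg/kg, and at 13.5 to 24.1 for Igfbp3, above all 5.

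Acute phase genes encode plasma proteins and regulators that hepatocytes make under the cytokines of inflammation. All 33 members tested had a negative log2 fold change, with a median of -0.50 against 0.03 over all genes, and 9 had an unadjusted p under 0.05, against 2.95% of all genes in that direction. Without 0.5 mg/kg replicates 1 and 2 the median was -0.02, with 14 of 33 positive. At an unadjusted p under 0.05, 1 was lower there, as were 293 of all 14418 genes. Without all 4 libraries the median was -0.15, with 26 of 32 negative and 3 lower (293 of all 14125 genes). Within the first run, which holds both mice, the median was -1.03 with 33 of 33 negative, while within the second it was 0.23 with 25 of 32 positive. The difference between the runs was not tested for the list.

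Saa1 (ENSMUSG00000074115, chromosome 7 from 46740497 to 46742980) and Saa2 (ENSMUSG00000057465, chromosome 7 from 46751790 to 46754313) encode the serum amyloids, among the most inducible of these proteins. At 0.5 mg/kg, Saa1 stood at 2291, 3119, 185, 65.5 and 18.9 CPM in replicates 1 to 5, against 13.7 to 95.4 CPM with a median of 58.7 at the higher dose. Saa2 stood at 1633, 2770, 50.0, 24.5 and 7.56 CPM, and at 4.81 to 24.5 CPM with a median of 13.2. Thus 2 mice of 13 were high in both genes, replicate 3 at 0.5 mg/kg was next, and the rest overlapped. The log2 fold changes were -3.96 ± 1.63 (SE, edgeR adjusted p = 0.845) for Saa1 and -5.29 ± 1.92 (adjusted p = 0.845) for Saa2. Without the 2 high mice they were -0.73 and -0.90, without all 4 libraries -0.97 and -1.27, and within the second run 0.77 and 0.23. The highest control mouse had 289 CPM of Saa1 and 124 of Saa2. As close copies of each other, both genes may share reads.

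The bases from 250 to 44 before both RefSeq starts (GRCm38.p6, from RefSeq, outside annotated exons) are shown because these genes were high in the same mice, with a C/EBP motif, TTGCNNAA, in capitals. C/EBP factors are known activators of acute phase genes. Saa1 is at chr7:46743024-46743230 on the minus strand and Saa2 at chr7:46751583-46751789 on the plus strand.
Saa1: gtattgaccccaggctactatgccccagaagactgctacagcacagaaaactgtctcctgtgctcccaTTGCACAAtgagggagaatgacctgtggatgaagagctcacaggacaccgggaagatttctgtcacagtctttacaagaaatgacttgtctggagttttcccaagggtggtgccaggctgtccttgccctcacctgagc
Saa2: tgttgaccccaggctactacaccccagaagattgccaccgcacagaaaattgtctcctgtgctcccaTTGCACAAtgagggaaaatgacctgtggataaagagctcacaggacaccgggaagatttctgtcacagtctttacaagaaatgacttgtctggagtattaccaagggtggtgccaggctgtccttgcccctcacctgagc
The pair matched in 195 of 208 aligned columns (93.8%), and the motif began 182 and 183 bases before those starts, which lie past the ends of the printed stretches. On either strand the motif was found in the 250 bases before the start in 9.56% of the promoters.

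Saa3, a serum amyloid that macrophages also make, stood at 48.1, 88.6, 6.71, 11.2 and 5.50 CPM at 0.5 mg/kg and at 3.07 to 6.87 with a median of 4.46 at 5 mg/kg (log2 fold change -2.37, -0.95 without the 4 libraries). Socs3, the feedback inhibitor of interleukin 6 signalling, stood at 44.0, 39.1, 28.8, 28.7 and 11.1 CPM against 6.27 to 25.2 with a median of 13.7 (-1.03, -0.74 without the 4 libraries). Both kept their sign in each run. Il1r1, the interleukin 1 receptor, was at 166 and 225 CPM in replicates 1 and 2 and at 41.7 to 91.4 in the other 11 mice, and its log2 fold change was -0.92, or -0.25 without the 4 libraries. Lcn2, an iron-sequestering protein released in infection, was at 32.5 and 55.8 CPM in those 2 mice and at 0.458 to 9.12 in the rest, and its log2 fold change turned from -2.39 to 0.66 without them and was -0.34 without all 4 libraries. Fgb, the fibrinogen beta chain, was high in 0.5 mg/kg replicate 2 (9383 CPM) and 5 mg/kg replicate 6 (9390) and at 2650 to 5470 in the others. Its log2 fold change was -0.40, 0.13 without 0.5 mg/kg replicates 1 and 2, and -0.105 without all 4 libraries. In the list of complement and coagulation proteins, 23 of 35 were negative with a median of -0.07, and complement factor B (Cfb, -0.52) and the mannose-binding lectin Mbl1 (-0.40) had the smallest p. They were at -0.32 and -0.12 without the 4 libraries.

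Markers of neutrophils, the first immune cells to enter inflamed tissue, had their highest summed level in 0.5 mg/kg replicate 1. Over 11 genes it was 46.9 CPM there, with 19.5 the next highest at that dose. It was 1.74 to 8.01 at 5 mg/kg and 4.21 to 26.9 in the control mice. Mmp9, Ngp, Ltf, Ly6g and Camp, all under 1 CPM, were highest in mice other than 0.5 mg/kg replicates 1 and 2. S100a9 stood at 18.5 CPM in replicate 1 against 0.134 to 7.02 elsewhere, while Camp was without a read in 12 of 13 mice and Ly6g in 11. Kupffer cell and macrophage markers summed to 231 to 503 CPM at 0.5 mg/kg and to 257 to 425 at 5 mg/kg, and 16 of 17 had a negative log2 fold change, with a median of -0.29. Vsig4, a complement receptor of Kupffer cells, had -0.49 and Cd5l, a protein they secrete, had -0.38. The values were -0.22 and -0.18 when 0.5 mg/kg replicates 1 and 2 were left out. The list's median was -0.69 in the first run, 0.06 in the second and -0.20 without the 4 libraries. The part of these cells in the acute phase values was not tested, and in whole liver fewer cells of a type cannot be told apart from less RNA per cell. Interferon response genes, which resist viruses, had a median of -0.10 with 26 of 37 negative, and medians of -0.34 and 0.27 in the 2 runs. Mx2 (-0.59), Ifi44 (-0.55) and Irf7 (-0.26) had their smallest p, and had -0.11, -0.09 and -0.25 when 0.5 mg/kg replicates 1 and 2 were left out.

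**Figure D2:**
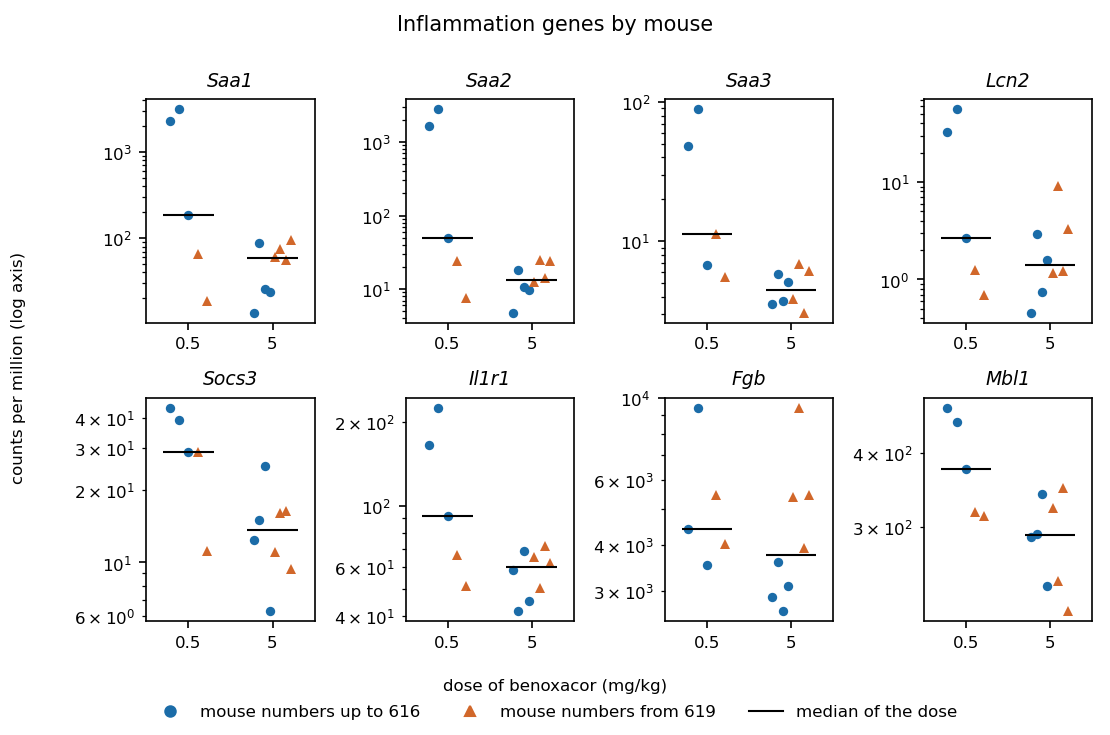
CPM on a log axis by dose (mg/kg) for 8 genes of inflammation, with 1 point per mouse, circles for mouse numbers up to 616, triangles for those from 619 and a line at the median. Saa1 was at 2291 and 3119 in 0.5 mg/kg replicates 1 and 2 and at 185 or below in the other 11 mice.

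Genes of the endoplasmic reticulum and integrated stress responses, chaperones and factors that answer unfolded protein and amino acid shortage, had a median of -0.19, with 21 of 29 negative. At an unadjusted p under 0.05, 5 were lower (2.95% of all genes) and 1 was higher (2.89%). Leaving out 0.5 mg/kg replicates 1 and 2 left 1 lower (293 of all 14418 genes) and 0 higher (460 of 14418). Without the 4 libraries 2 were lower (293 of all 14125 genes). Besides Dnajb9, the members at that p in the main fit included the trimming factor Edem1 (-0.33) and the secreted survival factor Manf (-0.53). The others, chosen after their values were seen, were Hyou1 (-0.43), Sel1l (-0.26) and Trib3 (0.97). Edem1 stood at 293, 288, 208, 236 and 230 CPM at 0.5 mg/kg and at 160 to 225 with a median of 209 at 5 mg/kg, so the highest values were again in replicates 1 and 2, and its value was -0.15 without them and -0.11 without the 4 libraries. Manf stood at 106, 152, 74.1, 125 and 131 CPM against 39.1 to 112 with a median of 87.5, and its within-run values were -0.55 and -0.51, with -0.32 without 0.5 mg/kg replicates 1 and 2. Manf overlaps the antisense genes Dcaf1 and 4930524O07Rik and, on its own strand, Rbm15b. The list's median was -0.25 in the first run, -0.15 in the second and -0.11 without the 4 libraries, with 7 of 29 positive. The major chaperone Hspa5 was at -0.46 and the transcription factor Xbp1 at -0.19.

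Heat shock genes are the chaperones of the cytosol and mitochondria. Of 20 tested, 19 had a negative value, with a median of -0.19 and 5 lower at an unadjusted p under 0.05, against 2.95% of all genes. The count was 2 without 0.5 mg/kg replicates 1 and 2 (293 of all 14418 genes) and 2 without the 4 libraries (293 of 14125). The median was -0.13 in the first run, -0.20 in the second and -0.22 without the 4 libraries, where 20 of 20 were negative. Dnaja1, a partner of Hsp70, stood at 535, 594, 389, 395 and 366 CPM at 0.5 mg/kg and at 262 to 404 with a median of 302 at 5 mg/kg (-0.49 ± 0.14, edgeR adjusted p = 0.845), and it was at -0.29 without the 4 libraries. Of the 8 mice, 6 lay below every 0.5 mg/kg mouse. Dnaja1 overlaps the antisense gene Smu1 (mean 56.1 CPM over the 26 mice). Chordc1, a co-chaperone of Hsp90, stood at 119, 127, 69.9, 52.8 and 56.6 CPM against 47.2 to 78.4 with a median of 51.0 (-0.55, -0.16 without the 4 libraries). The p53 and DNA damage list, which includes Plk3, had a median of -0.03 and 10 of 17 negative, with the death receptor Fas at -0.64 and at -0.21 without 0.5 mg/kg replicates 1 and 2. Immediate early genes had a median of -0.13 and 10 of 16 negative, and Myc was at 9.34, 19.0, 15.8, 9.86 and 4.36 CPM against 1.07 to 14.8 with a median of 3.45 (-1.11). Glucocorticoid targets and metallothioneins had a median of -0.05. Zbtb16, a transcriptional repressor of that list, had -0.49 ± 0.28 and 0.07 without the 4 libraries.

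Fatty acid and triglyceride synthesis genes, which act under SREBP1c and ChREBP when sugar and insulin are high, had positive values in 20 of 24 members, with a median of 0.20. At an unadjusted p under 0.05, 2 were higher (2.89% of all genes) and 1 was lower (2.95%). Besides Fasn, these were Acly, which makes acetyl-CoA for it in the cytosol, and Insig2, which holds SREBP proteins back (-0.49, named after its value was seen). Acly stood at 234, 192, 187, 206 and 237 CPM at 0.5 mg/kg and at 195 to 355 with a median of 268 at 5 mg/kg (0.40 ± 0.15, edgeR adjusted p = 0.845). The list's median was 0.34 in the first run, with 8 members higher at an unadjusted p under 0.05 (8.05% of all genes in that run) and 1 lower (7.84%). It was 0.03 in the second, with 1 higher (3.62%) and 2 lower (3.37%). Without the 4 libraries it was 0.17. Cholesterol synthesis and uptake genes, under SREBP2, had 18 of 25 positive and a median of 0.11, which was 0.17 without the 4 libraries. Dhcr7, the last enzyme of that pathway, had 0.29 and Srebf2, which encodes SREBP2 itself, 0.15. In the same libraries adipocyte markers were present in 5 mg/kg replicates 6 and 8, as given with the tissue markers. Their part in the lipid values was not tested, and Fasn was at 0.95 without those 2 mice.

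PPAR-alpha targets, genes of fatty acid breakdown that answer to fasting, had a median of 0.00 with 15 of 30 positive, made of 0.27 in the first run and -0.48 in the second. Leaving out 0.5 mg/kg replicates 1 and 2 gave a median of -0.32, with 22 of 30 negative. At an unadjusted p under 0.05, 5 were lower there, as were 293 of all 14418 genes. Without the 4 libraries the median was -0.32, with 26 of 30 negative and 6 lower (293 of all 14125 genes). In the 13 mice 3 of the 30 were lower at that p, as were 2.95% of all genes. Fabp1, the liver's fatty acid carrier, stood at 6689, 4661, 4891, 4546 and 4663 CPM at 0.5 mg/kg and at 1977 to 6072 with a median of 3716 at 5 mg/kg (-0.45, -0.29 without the 4 libraries). Of the 8 mice, 7 lay below every 0.5 mg/kg mouse. Vnn1, a pantetheinase, had -0.56 and -0.78 without the 4 libraries. Gluconeogenesis and fasting genes had a median of 0.04, with 0.33 and -0.29 in the runs. Gadd45g, a stress sensor, had -1.52, and Pck1, the rate-limiting enzyme of glucose synthesis, had -0.48 with one 0.5 mg/kg mouse, replicate 4, at 2280 CPM and the other 12 mice at 259 to 1091. Without that mouse it was at -0.13.

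Targets of CAR had a median of -0.12, with 16 of 23 negative and 2 lower at an unadjusted p under 0.05 (2.95% of all genes). Cyp2c50, a P450 whose close copies can share reads, stood at 929, 1382, 1186, 1218 and 873 CPM at 0.5 mg/kg and at 633 to 1011 with a median of 848 at 5 mg/kg (-0.38). Its groups overlapped, and its value was -0.39 without the 4 libraries. The secreted signalling protein Tsku had -0.47 and Cyp2c29 -0.34. Cyp2b10, the classical CAR marker, was low, at 2.72 to 5.27 CPM at 0.5 mg/kg and 0.641 to 8.74 at 5 mg/kg, with a log2 fold change of -0.30 ± 0.55. That value was -0.83 without 5 mg/kg replicate 6 alone and -1.06 without the 4 libraries. At 0.5 mg/kg all 5 mice lay above the control range of 0.699 to 1.495 CPM, and at 5 mg/kg 6 of 8 did.

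PXR targets had a median of -0.10 with 14 of 19 negative. Cyp3a13 stood at 271, 447, 266, 267 and 237 CPM at 0.5 mg/kg and at 130 to 364 with a median of 167 at 5 mg/kg (-0.66). Of the 8 mice, 7 lay below every 0.5 mg/kg mouse, and the exception was replicate 6. Its value was -0.38 without 0.5 mg/kg replicates 1 and 2. Cyp3a11, the main P450 of this receptor, had -0.34 ± 0.24, Alas1, the first enzyme of heme synthesis, had -0.62 (-0.34 without 0.5 mg/kg replicate 5), and the transferase Gstm2 had 0.49 (0.24 without 5 mg/kg replicate 2). The medians of both receptor lists were positive in the first run (0.10 for CAR and 0.18 for PXR) and negative in the second (-0.40 and -0.55), and both were -0.28 without the 4 libraries.

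Other enzymes of drug metabolism, the transferases and carboxylesterases, also had lower medians in the second run than in the first. Glutathione S-transferases had a median of -0.06 in the 13 mice, 0.36 in the first run with 18 of 23 positive, and -0.49 in the second with 3 of 23 positive. Gstm7 (0.47) and Gstp2 (-1.09, -0.60 without the 4 libraries) had their smallest p. Gstp2 and Gstp1 are close copies that can share reads. Glucuronosyl and sulfotransferases had a median of -0.15, with Ugt2b35 and Ugt2b34 both at -0.35 and 6 of 8 mice below every 0.5 mg/kg mouse in each. Carboxylesterases, which split ester bonds, had a median of -0.12. Ces1d stood at 768, 975, 1322, 1627 and 1196 CPM against 523 to 1046 with a median of 794 (-0.62), with values of -0.22 and -1.10 in the runs, and Ces1f had -0.26. NRF2 targets, the antioxidant genes, had a median of -0.09, with the glutathione synthesis enzyme Gclc at -0.39 and the heme oxygenase Hmox1 at -0.69. Hmox1 was at -0.43 without 0.5 mg/kg replicate 1, at -0.06 without 0.5 mg/kg replicates 1 and 2 and at -0.39 without the 4 libraries. Dioxin receptor targets had a median of 0.03, with 0 at an unadjusted p under 0.05 in 9 members (5.84% of all genes). Cyp1a1, their marker, stayed at 0.507 to 2.69 CPM in all 13 mice. The receptor gene Ahr itself had 79.4 and 86.2 CPM in the 2 mice high in acute phase genes and 22.8 to 45.0 in the other 11 mice, and its log2 fold change was -0.41, or 0.23 without those 2 mice.

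Bile acid synthesis and transport genes had a median of -0.06, with 0 of 21 at an unadjusted p under 0.05 (5.84% of all genes). Cyp7a1, which catalyses the first and limiting step of bile acid synthesis, stood at 134, 224, 87.1, 36.6 and 41.0 CPM at 0.5 mg/kg and at 39.6 to 223 with a median of 104 at 5 mg/kg (0.40 ± 0.27). It was at 0.67 without 0.5 mg/kg replicate 2, at 0.86 without replicates 1 and 2 of that dose, and at 0.92 without the 4 libraries. At each dose its levels were lower in the run from 619 than in the run up to 616, and the doses overlapped within each run. The sterol carrier Scp2 had -0.22. Iron and heme genes had a median of -0.02, and the biliverdin reductase Blvrb had -0.40.

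**Figure D3:**
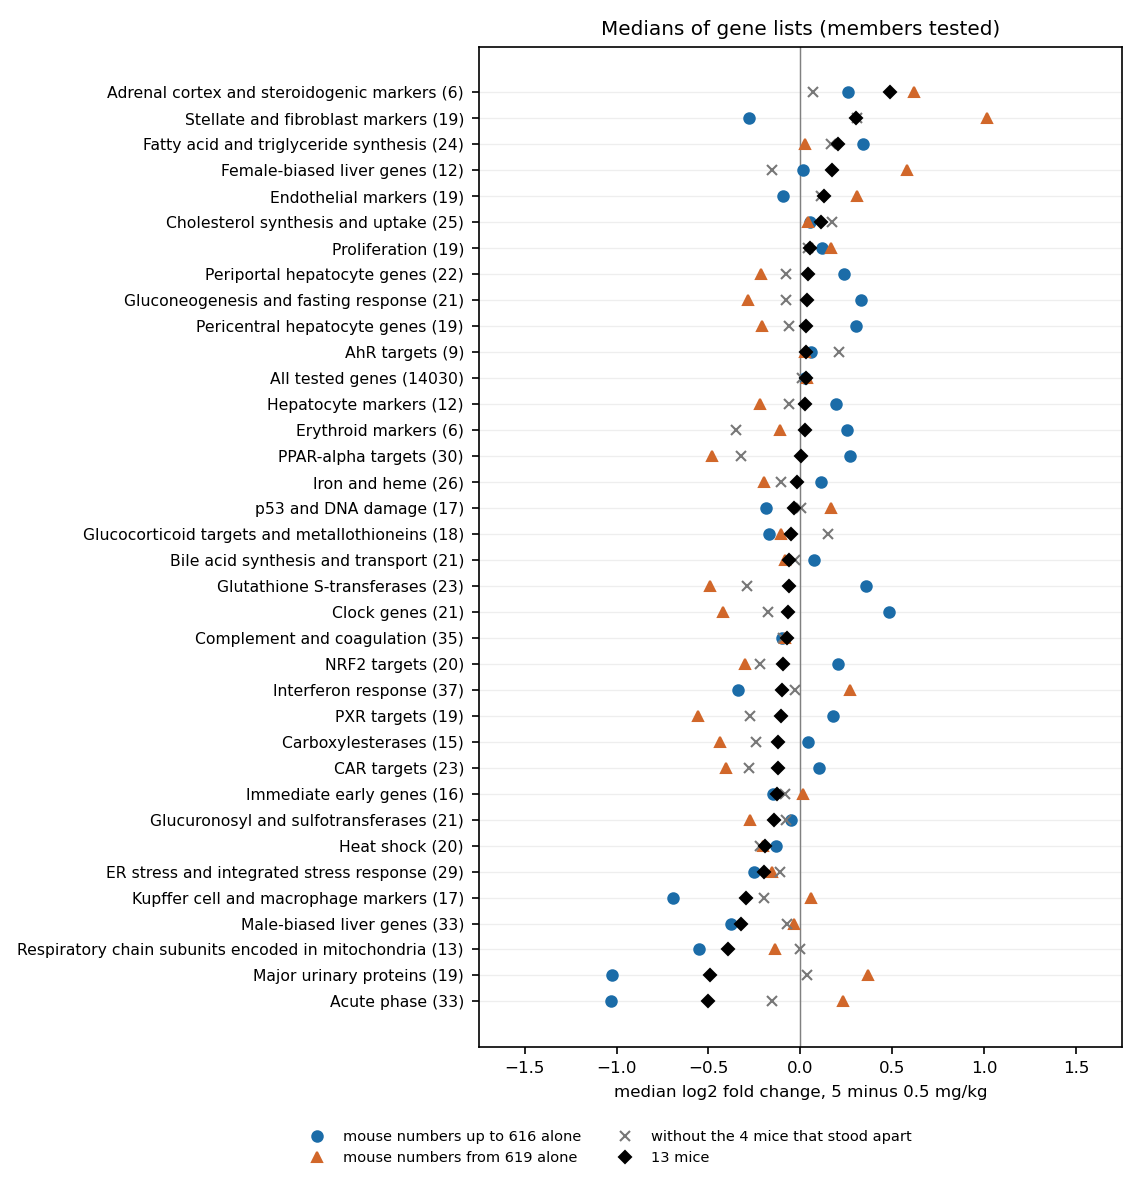
Median log2 fold change, 5 minus 0.5 mg/kg, of each gene list with at least 5 members tested, with the number of members in brackets. Diamonds stand for all 13 mice, circles and triangles for each run of mouse numbers alone and crosses for the fit without the 4 libraries that stood apart. Acute phase genes were at -0.50, -1.03, 0.23 and -0.15 in that order, and heat shock genes at -0.19, -0.13, -0.20 and -0.22.

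The dose difference itself differed between the runs in 2 of 14030 genes (0.0143%), both clock genes, in the interaction term of edgeR with Benjamini-Hochberg adjustment. An unadjusted p under 0.05 for that term was found in 2475 genes (17.6%). The scaling used here was chosen after results were seen, and the first scaling, from all genes, gave 7 genes past the threshold. Bhlhe40 (ENSMUSG00000030103, chromosome 6 from 108660629 to 108666925), a repressor that feeds back on the clock, stood at 65.6, 79.9 and 142 CPM in the 0.5 mg/kg mice of the first run and at 212 to 288 CPM in its 4 mice at 5 mg/kg. In the second run it stood at 118 and 136 CPM at 0.5 mg/kg and at 51.6 to 76.5 at 5 mg/kg. The groups did not overlap in either run and lay in opposite order, as they did in 203 of all 14030 genes. The log2 fold changes were 1.39 and -0.99, and their difference was -2.38 ± 0.33 (SE, adjusted p = 0.0250).

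Usp2 (ENSMUSG00000032010, chromosome 9 from 44067021 to 44095627), a deubiquitinase that follows the clock, stood at 19.5, 16.8 and 19.4 CPM at 0.5 mg/kg and 19.7 to 35.7 at 5 mg/kg in the first run. In the second it stood at 21.2 and 27.2 CPM, against 2.68 to 8.74. The difference of the fold changes was -2.83 ± 0.42 (SE, edgeR adjusted p = 0.0366). At 5 mg/kg the runs did not overlap in either gene. Control mice spanned 80.6 to 136 CPM for Bhlhe40 and 4.83 to 41.5 for Usp2. Leaving out 0.5 mg/kg replicates 1 and 2 left replicate 3 as the only mouse of that dose in the first run. The differences were then -1.82 for Bhlhe40 and -2.76 for Usp2. Leaving out 0.5 mg/kg replicate 5 left replicate 4 alone at that dose in the second run, with -2.27 and -2.64. With 1 mouse in a group, these fits are given by their differences only, and neither is counted as keeping the calls. Without 5 mg/kg replicates 6 and 8 there were 0 genes past the threshold, with 2340 (17.0%) at an unadjusted p under 0.05. Without 0.5 mg/kg replicate 3 alone there were 223. Among the fits without 1 other mouse, both calls ended without 0.5 mg/kg replicate 1 or 2, or without 5 mg/kg replicate 2, 4 or 6. The edgeR adjusted p was then 0.0732 to 0.203 for Bhlhe40 and 0.0916 to 0.203 for Usp2. Leaving out 5 mg/kg replicate 3 or 8 ended the call of Usp2 alone (edgeR adjusted p = 0.0534 and 0.0540). Without those single mice, 0.5 mg/kg replicate 5 included, the differences stayed between -2.38 and -2.17 for Bhlhe40 and between -2.89 and -2.64 for Usp2.

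The clock list also had medians of opposite sign in the runs. The list's median was -0.07 in the 13 mice, 0.48 in the first run with 10 of 20 higher and 4 lower at an unadjusted p under 0.05, and -0.42 in the second with 2 of 21 higher and 9 lower. Over all genes those shares were 8.05% higher and 7.84% lower in the first run, and 3.62% and 3.37% in the second. Chosen after their values were seen, Arntl, the core activator also called Bmal1, had -1.47 and 0.68 in the 2 runs, and the outputs Wee1 and Dbp had 0.56 and -1.77, and 2.17 and -1.72. Cry1, a core repressor, had the smallest p of the dose term. It stood at 24.5, 25.9, 23.4, 26.9 and 18.3 CPM at 0.5 mg/kg and at 8.35 to 25.8 with a median of 15.4 at 5 mg/kg (-0.67 ± 0.20, edgeR adjusted p = 0.845). Its groups did not overlap in the first run, as in 845 of all 14030 genes in that direction, and overlapped in the second. Nfil3, a repressor of clock outputs, had -0.68 with -1.11 and -0.14 in the runs, and -0.19 without the 4 libraries. The labels give no time of day, so it cannot be told apart from the dose and the run.

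**Figure D4:**
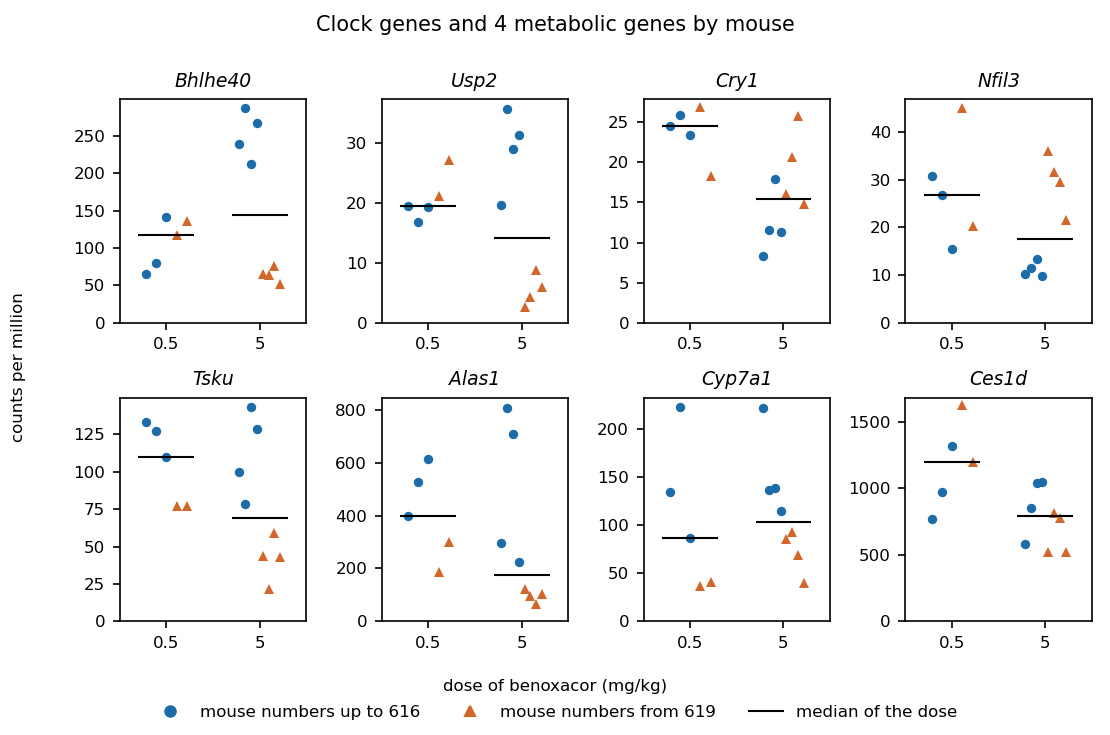
CPM by dose (mg/kg) for 4 clock genes and for Tsku, Alas1, Cyp7a1 and Ces1d, with 1 point per mouse, circles for mouse numbers up to 616, triangles for those from 619 and a line at the median. At 5 mg/kg Bhlhe40 was at 212 to 288 in the first run and 51.6 to 76.5 in the second, with the 0.5 mg/kg mice of both runs between 65.6 and 142.

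Male-biased liver genes, kept high by the pulses of growth hormone of males, had a median of -0.32 with 26 of 33 negative and 1 lower at an unadjusted p under 0.05 (2.95% of all genes). Cyp4a12a, a male-specific fatty acid hydroxylase, stood at 197, 355, 378, 591 and 245 CPM at 0.5 mg/kg and at 35.5 to 260 with a median of 210 at 5 mg/kg (-0.88), and the lowest value was that of replicate 6. Its value was -0.55 without 0.5 mg/kg replicate 4. The protease inhibitor Serpina3k had -0.47 and Cyp2u1 0.35. Major urinary proteins are pheromone carriers of near-identical genes whose reads can be split. They had a median of -0.49 with 18 of 19 negative and 0 at an unadjusted p under 0.05 (5.84% of all genes). Their median was -1.03 in the first run, with 18 of 19 negative, and 0.37 in the second, with 16 of 19 positive. In the first run 9 were lower at an unadjusted p under 0.05 (7.84% of all genes). Male-biased genes had medians of -0.38 and -0.04 in the runs. Mup3 stood at 37290, 24860, 26840, 15920 and 14810 CPM against 5464 to 31790 with a median of 14820 (-0.42), and Mup20, the pheromone darcin, had -0.43. Mup3 was at -0.08 and Mup20 at -0.21 without the 4 libraries. Without the 4 libraries the medians of these 2 groups were -0.07 and 0.04. Female-biased genes had a median of 0.17 with 9 of 12 positive, and -0.16 without the 4 libraries. Atp6v0d2 (1.81) stood at 10.7 CPM in 5 mg/kg replicate 6 and at 0.229 to 2.41 in the others and was at 0.97 without the 4 libraries, and Trim24 had -0.27 (-0.10).

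Respiratory chain subunits encoded in mitochondrial DNA had a median of -0.39 with 11 of 13 negative. mt-Nd1, a subunit of complex I, stood at 9845, 6489, 5099, 4155 and 4185 CPM at 0.5 mg/kg and at 3272 to 6651 with a median of 3829 at 5 mg/kg (-0.44), and mt-Co3 had -0.58. These were at -0.27 and -0.35 without 0.5 mg/kg replicate 1, and without the 4 libraries at -0.17 and -0.24. The highest value was that of 0.5 mg/kg replicate 1, the library of lowest depth, in which mitochondrial genes held 10.4% of the counts against 3.83% to 7.42% elsewhere. Without the 4 libraries the median was 0.00. Pericentral and periportal hepatocyte genes, which mark the ends of the liver lobule, had medians of 0.03 and 0.04, with opposite signs in the runs (0.30 and -0.21, and 0.24 and -0.21). Tbx3, a pericentral transcription factor, had 0.72 in the 13 mice and 0.69 without the 4 libraries, Aldh1b1 had 0.70 (0.34 without them) and Ctsc -0.53. Cell cycle genes had a median of 0.05, with Rrm1 at 0.38 and Mcm5 at 0.61.

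Hepatocyte markers were abundant in every library, with a summed level of 65410 to 142000 CPM at 0.5 mg/kg and 70030 to 157200 at 5 mg/kg. Apob, the lipoprotein scaffold among them, had -0.28 and -0.04 without the 4 libraries. Endothelial markers had a median of 0.13 with 14 of 19 positive, led by Eng, a co-receptor of vascular endothelium. Eng stood at 51.2, 44.8, 44.5, 52.5 and 40.1 CPM at 0.5 mg/kg and at 52.9 to 64.7 with a median of 59.5 at 5 mg/kg, with no overlap (0.34 ± 0.10, edgeR adjusted p = 0.845). The control mice, at 53.6 to 67.1 CPM, overlapped the 5 mg/kg mice and lay above all 5 at 0.5 mg/kg. Oit3 had 0.31. The endothelial median was -0.10 in the first run, 0.31 in the second and 0.01 without 5 mg/kg replicates 6 and 8. Stellate cell and fibroblast markers had a median of 0.30 with 16 of 19 positive, and 0.31 with 19 of 19 positive without the 4 libraries, but -0.28 in the first run and -0.05 without 5 mg/kg replicates 6 and 8. Their summed level was highest in replicate 8, at 880 CPM, and the part of that library's other tissues in it was not tested. Sod3, an extracellular antioxidant enzyme, had 0.61 and Ecm1 is described among the genes of smallest p. Cholangiocyte and erythroid markers had medians of -0.03 and 0.02, with Klf1 at 0.20 and Hba-a2 at 0.15. The 2 were at -0.02 and -0.50 without the 4 libraries.

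Transcripts of other tissues were found in 2 mice at 5 mg/kg. Cyp11a1, the first enzyme of steroid synthesis, was at 487 CPM in replicate 8 and without a read in the other 12 mice, and Hsd3b1 was at 1345 CPM there against at most 0.134 elsewhere. The summed level of 13 adrenal cortex markers was 4601 CPM in that library and 203 to 359 in the other 12, where Scarb1 and Fdx1, which the liver also expresses, were present in every mouse. The pancreatic enzyme genes Cpb1 and Pnlip were at 9.94 and 17.3 CPM in replicate 8 and without a read elsewhere, which allows 3 reads or 0.321 to 0.584 CPM by counting error alone. Of the same pancreatic list, Amy2a5 and Prss1 had no read in any of the 13 mice, and Cela1 and Cela2a were present in all of them. The B cell gene Cd79a was at 8.33 CPM in replicate 8 against 0.267 to 2.25 elsewhere. The fat cell gene Plin1 was at 78.5 CPM in replicate 8 and 45.0 in replicate 6 and without a read in the other 11, and Ucp1, a marker of brown fat, was highest in replicate 6 at 80.5 CPM. Scarb1 and Fdxr, the adrenal list's members of smallest p, had 0.41 and 0.57 in the 13 mice and 0.10 and 0.09 without the 4 libraries.

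**Figure D5:**
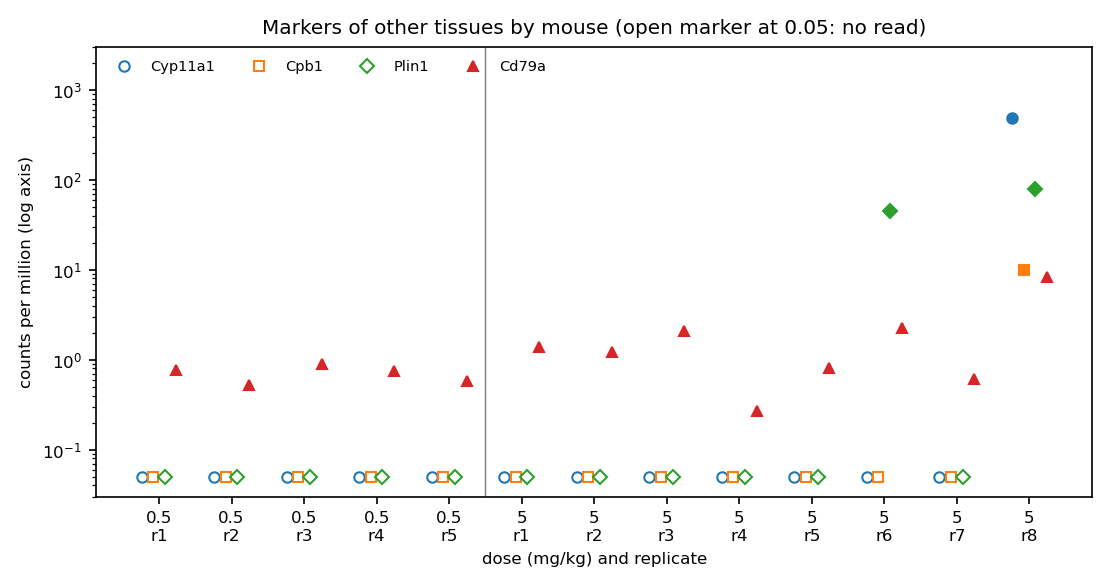
CPM on a log axis of a marker of adrenal cortex (Cyp11a1), pancreas (Cpb1), fat (Plin1) and B cells (Cd79a) in each of the 13 mice, by dose (mg/kg) and replicate (r), with open points where no read was found. Cyp11a1 was at 487 and Plin1 at 78.5 in 5 mg/kg replicate 8, and Plin1 at 45.0 in replicate 6.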

How the data were processed

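Liver RNA of 26 mice was sequenced, and the authors deposited raw read counts per gene. The submitters' processing notes name bcl2fastq, featureCounts and mm10, and the aligner, annotation, strand setting and versions are not given in the sources used here. All 26 single-sample files held the same counts as the table of 54532 genes. Positions are from GENCODE M21, which held 54495 of the IDs, and promoters from RefSeq. Doses came from the labels.

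Genes were kept by filterByExpr over the 13 mice (99.62% of their reads), scaled by TMM factors from the 26 libraries, and tested in edgeR 4.0.16 under R 4.3.3 with robust quasi-likelihood and terms for dose and run, at an adjusted p of 0.05. The interaction of run and dose was fitted the same way. The scaling factors were first computed over all genes, and were changed to filtered genes after results were seen. The edgeR fit of dose was tested on simulated counts, and the other fits were not. DESeq2 1.42.0, limma 3.58.1 (voom), other scalings, filters and thresholds, each run alone and fits without mice were alternatives. Each of 38 pairs of libraries within a dose differed beyond sampling noise (chi-square per degree of freedom 11.96 or more). Depth of 5433074 to 9088626 reads limits the precision of genes near 1 CPM.

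The lists and the rule for named genes were chosen with earlier results of these data known. The rule took the 10 smallest p in each direction at a mean of at least 1 CPM, 3 members of each main list and 2 of the others with at least 5 tested, 6 genes followed from earlier work, and up to 5 genes past the interaction threshold. Of the genes so named, 2 are not reported here.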

Additional observations from a re-analysis of the deposited data

Results flagged for a closer look

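Bhlhe40 and Usp2, both clock genes, had a dose difference that differed between the runs of mouse numbers in edgeR's interaction test. The log2 fold change in the run from 619 minus that in the run up to 616 was -2.38 for Bhlhe40 and -2.83 for Usp2.

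A single mouse stood apart from the others of its dose in 27 of 218 groups examined, its gap to the nearest mouse being above Dixon's 95% critical value. For normally distributed values chance alone does this in about 1 in 20 groups. The CPM values were not log-transformed and the measures share the same mice, so that rate need not hold here. Of the 27, 10 were in 5 mg/kg replicate 8 and 8 in 5 mg/kg replicate 6.

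Replicate 8 at 5 mg/kg was highest in Smarcd1 (19.8 CPM), Sod3 (32.2), Hmox1 (22.1), Fdxr (117) and Ifi44 (5.34), in the number of genes with a read (22970), and in the summed CPM of stellate and fibroblast (880.3), lymphocyte (138), adrenal cortex (4601) and pancreatic acinar markers (166). Replicate 6 at 5 mg/kg was highest in Cyp3a13 (364 CPM), Oit3 (24.7), Aldh1b1 (93.3), Atp6v0d2 (10.7), Ctsc (162), Lcn2 (9.12) and Fgb (9390), and in the summed CPM of hepatocyte markers (157200). Replicate 3 at 5 mg/kg was highest in Chordc1 (78.4 CPM) and mt-Nd1 (6651).

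At 0.5 mg/kg, replicate 1 was highest in Smarcd1 (8.95 CPM) and Fabp1 (6689) and lowest in total count (5433074 reads). Replicate 2 was highest in Cyp3a13 (447 CPM), replicate 3 in Atp6v0d2 (1.27), and replicate 4 in Dhcr7 (48.8) and Pck1 (2280).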

How the results depend on the processing

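Genes past an adjusted p of 0.05 for dose numbered 0 to 1 when each mouse was left out in turn, 22 in DESeq2 and 0 in the other alternatives run. For the interaction they numbered 2, between 0 and 223 without each mouse, 58 with no filter on low counts, 186 in DESeq2, and 0 without 0.5 mg/kg replicates 1 and 2 or without 5 mg/kg replicates 6 and 8. Scaling factors from all genes were the first choice and gave 7. They were replaced after results were seen by the factors from filtered genes, used in the main fit. The interaction fit without 0.5 mg/kg replicates 1 and 2 was also tried after seeing the data. Genes whose groups did not overlap numbered 28, and 172 without 0.5 mg/kg replicates 1 and 2, 83 without 5 mg/kg replicates 6 and 8 and 376 without all 4, where fewer mice leave more room between groups. The cause of the other differences was not tested.

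Of 2562 log2 fold changes of named genes under alternatives, 2495 kept their sign and side of an adjusted p of 0.05, 17 moved past it, 18 lost it and 32 changed sign, in 18 of 96 genes. In the run from 619 alone these were Il1r1 (0.084), Saa2 (0.23), Saa1 (0.77), Vsig4 (0.038), Cyp2u1 (-0.042), Mx2 (0.25), Lcn2 (1.93), Ahr (0.31), Ifi44 (0.37), Fgb (0.35), Cyp1a1 (-0.83), Klf1 (-0.056) and Hba-a2 (-0.46). In the run up to 616 alone they were Blvrb (0.073), Ces1f (0.041), Srebf2 (-0.0062) and Cyp2b10 (0.11). Without 0.5 mg/kg replicates 1 and 2 they were Lcn2 (0.66), Ahr (0.23), Fgb (0.13), Cyp1a1 (-0.028), Klf1 (-0.13) and Hba-a2 (-0.12). Without all 4 libraries they were Mx2 (0.0002), Zbtb16 (0.072), Ahr (0.25), Klf1 (-0.024) and Hba-a2 (-0.50). Hba-a2 was also at -0.21 in limma, -0.0625 without 5 mg/kg replicates 6 and 8, and lay between -0.3455 and 0.3045 without each mouse in turn.

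Of 945 medians of 35 lists, 913 moved by less than the spread between mice (1 SD). In the run up to 616 alone the others were NRF2 targets (0.21), glutathione S-transferases (0.36), gluconeogenesis (0.33), clock (0.48), acute phase (-1.03), pericentral (0.30), endothelial (-0.10), stellate (-0.28) and Kupffer cell genes (-0.69). In the run from 619 alone they were PXR targets (-0.55), glutathione S-transferases (-0.49), carboxylesterases (-0.44), PPAR-alpha targets (-0.48), fatty acid synthesis (0.027), gluconeogenesis (-0.29), clock (-0.42), acute phase (0.23), interferon (0.27), p53 (0.17), cell cycle (0.17), pericentral (-0.21), iron and heme (-0.20), endothelial (0.31) and stellate genes (1.02). Without 0.5 mg/kg replicates 1 and 2 they were PPAR-alpha targets (-0.32) and acute phase genes (-0.023). Without all 4 libraries they were dioxin receptor targets (0.21), PPAR-alpha targets (-0.32) and mitochondrial genes (0.0001). With no filter on low counts they were female-biased (0.85) and adrenal genes (5.69). The endothelial median lay between -0.056, without 0.5 mg/kg replicate 5, and 0.25 when each mouse was left out.

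No paired analysis was possible because the labels give no replicate numbers that link mice of the 2 doses. Counts of a few reads limit genes near 1 CPM.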
